A study of Mus musculus with 11 samples.

Results

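Germinal center B cells that lacked Crebbp were set directly against germinal center B cells that lacked Ep300. This comparison used 6 of the 11 RNA-seq libraries of the study, 3 from each knockout, and the other 5 came from WT mice. The Crebbp-KO mice were Crebbp fl/fl, Ep300+/+ and Cg1cre/+, the Ep300-KO mice were Crebbp+/+, Ep300 fl/fl and Cg1cre/+, and the WT mice were Crebbp+/+, Ep300+/+ and Cg1cre/+. All groups therefore carried the Cg1-Cre allele, which switches on Cre recombinase in B cells as they enter the germinal center reaction. Splenic cells that stained for B220, PNA and CD95 were collected by sorting 12 days after an intraperitoneal injection of sheep red blood cells. The labels describe crosses that give WT littermates of Crebbp-KO mice and name no WT littermates of the Ep300-KO mice, so loss of Ep300 and the background of that cross cannot be told apart. Age, sex and litter are not stated, and the labels do not say whether each library came from 1 mouse. The p-values therefore measure the spread between these libraries. Genes entered the comparison when their mean over all 11 libraries was at least 10 normalized reads, which kept 16515 of the 48593 genes in the table.

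CREBBP and EP300 are closely related lysine acetyltransferases. They are recruited to enhancers and promoters by transcription factors, acetylate histones there, and also acetylate other proteins. Germinal center B cells cycle between a dark zone, where they divide and mutate their antibody genes, and a light zone, where they display antigen on MHC class II molecules and are selected by helper T cells. CREBBP is among the genes most often mutated in follicular lymphoma and diffuse large B cell lymphoma, EP300 is mutated less often, and MHC class II genes are well-known targets of CREBBP in B cells.

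Libraries are named as labelled, with CBP-KO standing for loss of Crebbp and p300-KO for loss of Ep300. The 6 knockout libraries held 59879689 to 103858626 reads counted in genes. A principal component analysis of these 6 libraries placed the 3 Crebbp-KO libraries at -39.7 to -13.5 and the 3 Ep300-KO libraries at 15.9 to 45.2 on the first component, which carried 37.6% of the variance. The second component, with 26.8%, placed CBP-KO_1 at -48.0, p300-KO_287 at -18.4 and p300-KO_289 at 39.2. On it p300-KO_18, CBP-KO_53 and CBP-KO_55 lay at 8.94 to 9.19. p300-KO_18 stood apart from all the others in its sex-linked transcripts. It held 98751 normalized reads of Xist, a transcript of female cells, together with 9852 normalized reads from Y-linked genes. Each of the other 10 libraries held much of one and at most 117 of the other. CBP-KO_1 and p300-KO_287, which had the negative values on the second component, were the other knockout libraries with Y-linked reads. Counts are therefore also given without p300-KO_18. All 14 germinal center B cell markers in the table passed the filter. All 20 naive and memory B cell markers reached 50 normalized reads in some knockout library as well, with Fcer2a at 9787 to 27860.1 and Cr2 at 10486 to 19489 in the knockouts, and so did 7 of 20 macrophage and monocyte markers. Of 10 neutrophil markers, 7 were at 0 in all 6 knockout libraries and none reached 50. Of 17 T cell markers, 12 stayed under 50 there, including the receptor chains Cd3e, Cd3g and Trac and the coreceptors Cd4 and Cd8a. Among the other 5 T cell markers, Lck reached 5870 and Cd247 1803 in a knockout library, and Thy1 lay at 55.5 to 427 in the knockouts against at most 77.3 in WT.

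Expression of the targeted genes was examined first. Values are normalized reads, listed throughout for the libraries labelled CBP-KO_1, CBP-KO_53 and CBP-KO_55 and then for p300-KO_18, p300-KO_287 and p300-KO_289. Calls that ended when any single library was left out are named with those libraries. Ep300, at chr15:81585351-81652077 in mm10, stood at 22789, 25741 and 23271 in Crebbp-KO and 14829, 14796 and 13773 in Ep300-KO, against 19310.3 to 22498 in WT. Every Ep300-KO library was below every Crebbp-KO library (log2 fold change 0.73 ± 0.07 SE, adjusted p = 7.08e-05). Crebbp, at chr16:4081328-4213997, stood at 8595, 8606 and 7541 in Crebbp-KO and 10073, 10952 and 10218 in Ep300-KO, against 7984 to 9584 in WT. Every Crebbp-KO library was below every Ep300-KO library (log2 fold change -0.34 ± 0.08 SE, adjusted p = 0.0224). Against WT in the same fit, Crebbp stood at -0.10 in Crebbp-KO (adjusted p = 0.459) and at 0.24 in Ep300-KO (adjusted p = 0.0551), neither past the threshold. The Crebbp difference did not pass without p300-KO_287 or CBP-KO_55 (adjusted p from 0.0794 to 0.0969). For each gene an exact permutation test, two-sided, returned p = 0.1, the smallest value that 3 against 3 libraries allow. The counts cover whole genes and not the floxed exons alone, so transcripts that lack only the deleted exons would still be counted. A targeted gene therefore need not stand at 0, and the extent of deletion was not tested. Of 17 lysine acetyltransferase genes tested, Ep300 (higher in Crebbp-KO) and Crebbp (lower) passed the threshold, and 15 did not. The share over all tested genes was 9.42%, with 4.79% higher and 4.63% lower.

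The Crebbp-KO and Ep300-KO libraries differed across many genes. At a Benjamini-Hochberg adjusted p below 0.05 in the limma model fitted across all genes, 1556 genes differed between the knockouts, or 9.42% of those tested. Of these, 791 were higher in Crebbp-KO (4.79%) and 765 were lower (4.63%). The median size of a called difference was 0.49 on the log2 scale, and 338 genes differed by 2-fold or more, 141 of them higher and 197 lower in Crebbp-KO. Fold changes here are Crebbp-KO over Ep300-KO on the scale of log2(normalized reads + 1), so a negative value means lower in Crebbp-KO. The 3 and 3 libraries did not overlap for 2554 genes that were higher in Crebbp-KO (15.5%) and for 2572 that were lower (15.6%). In the same fit, 8.36% of genes differed between Crebbp-KO and WT and 11.9% between Ep300-KO and WT. These contrasts share the knockout libraries with the direct one, and values against WT are given beside it only to show levels. The number of calls was 849 without p300-KO_18, 906 without p300-KO_287, 862 without CBP-KO_53 and 745 without CBP-KO_55. Among the libraries nearly free of Y-linked reads, with 2 Crebbp-KO and 1 Ep300-KO library left, it was 61. All 1556 genes kept their direction in each of these fits. For 1541 of them the 3 and 3 libraries did not overlap, so leaving out libraries could not reverse the direction. In the fit of libraries nearly free of Y-linked reads, no gene list below had more than 2 called members in either direction.

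**Figure D1:**
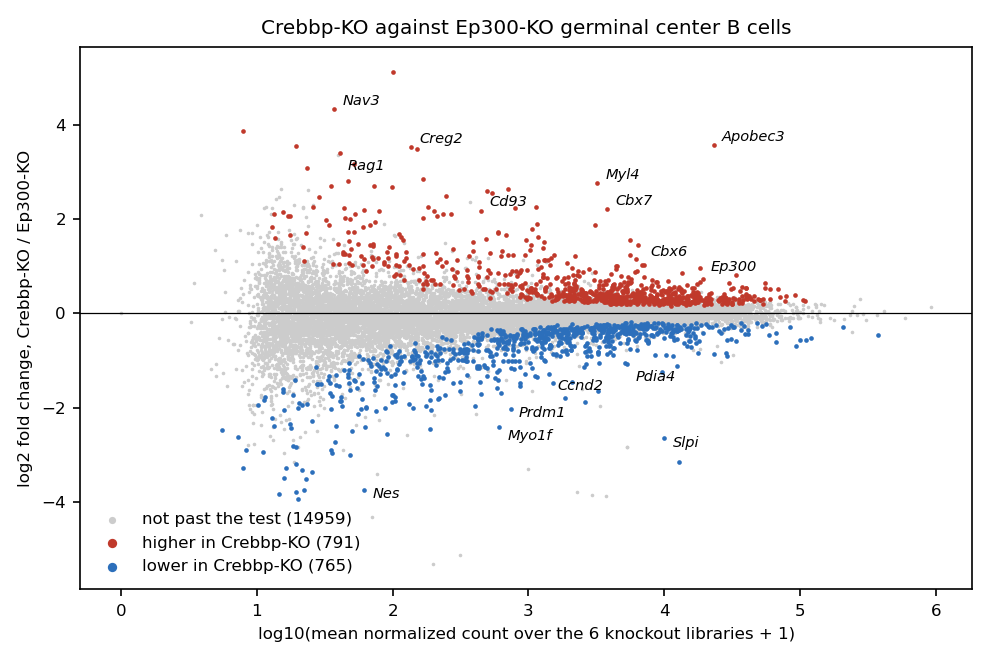
Each point is 1 of the 16515 tested genes, with log10 of the mean normalized count over the 6 knockout libraries plus 1 on the horizontal axis and the log2 fold change of Crebbp-KO over Ep300-KO on the vertical axis. Red points are the 791 genes higher and blue points the 765 genes lower in Crebbp-KO, and labelled genes include Apobec3 at 3.58, far out among abundant genes, and Slpi at -2.65.

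MHC class II genes were lower in Crebbp-KO than in Ep300-KO. H2-Aa, the alpha chain of the classical class II molecule I-A, stood at 100092, 91189.8 and 75307 in Crebbp-KO and 124964, 140902 and 126527 in Ep300-KO, against 126744 to 153769.8 in WT. Thus the Crebbp-KO libraries were below all others, while the Ep300-KO libraries lay close to WT (log2 fold change -0.57 ± 0.10 SE, adjusted p = 0.00473). H2-Ab1, the beta chain of the same molecule, stood at 106290.2, 102242 and 86959 in Crebbp-KO and 142160.0, 142965 and 137848 in Ep300-KO. It also separated the knockouts without overlap (log2 fold change -0.52 ± 0.08 SE, adjusted p = 0.00158). H2-Eb1, the beta chain of I-E, stood at 87329, 84287 and 70049 in Crebbp-KO and 118506, 121347 and 117778 in Ep300-KO (log2 fold change -0.57 ± 0.09 SE, adjusted p = 0.00158). H2-DMb2, a chain of the H2-M molecule that loads peptides onto class II, stood at 24669, 25536 and 20106 in Crebbp-KO and 31117, 38432 and 34413 in Ep300-KO (log2 fold change -0.57 ± 0.09 SE, adjusted p = 0.00289). Cd74, the invariant chain that escorts class II through the cell, differed by -0.45 (adjusted p = 0.00735). Ciita, the coactivator that switches class II genes on, did not pass the threshold (-0.29, 95% interval -0.47 to -0.11, adjusted p = 0.0505). In the class II list, 0 of 14 tested members were higher in Crebbp-KO by limma (1 at an unadjusted p under 0.05, 0 by edgeR and 0 by DESeq2), 8 were lower and 6 did not pass the threshold, against a background of 4.63% of all tested genes lower. The list's median log2 fold change was -0.40, against -0.0033 over all tested genes. Against WT the list's medians were -0.56 for Crebbp-KO and -0.06 for Ep300-KO. Leaving out 1 library at a time gave 6 to 9 lower members, with 7 lower without p300-KO_18.

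The H2-Aa promoter is shown because class II promoters share a module that recruits CIITA, and its X2 and Y boxes bind CREB and NF-Y. The window covers chr17:34287774-34288073 on the minus strand of GRCm38.p6, from 250 bases before to 50 bases after the start of the gene as RefSeq gives it. Capitals mark a cAMP response element, TGACGTCA, at bases 177 to 184 and a Y box core, CTGATTGG, at bases 200 to 207.
H2-Aa: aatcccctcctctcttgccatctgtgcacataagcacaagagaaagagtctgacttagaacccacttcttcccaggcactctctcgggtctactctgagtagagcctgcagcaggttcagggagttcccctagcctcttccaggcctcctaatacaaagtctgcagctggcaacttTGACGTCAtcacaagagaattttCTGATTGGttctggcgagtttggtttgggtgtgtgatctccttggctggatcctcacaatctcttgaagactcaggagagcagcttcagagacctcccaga
Both strands were searched, and the 2 motifs do not overlap. H2-Aa was the 1 gene among 10 class II genes with a window in RefSeq's table that held TGACGTCA. This motif lay in 3.58% of the windows of tested genes, in 4.09% of those of genes higher in Crebbp-KO and in 2.82% of those of genes lower in Crebbp-KO. CTGATTGG lay in 4 of the 10 class II windows and in 6.89% of the windows of tested genes. It lay in 8.50% of the windows of genes higher in Crebbp-KO and in 6.70% of those lower. Among the folding and secretion genes described below, 11 of 28 windows held it as well. The motifs were chosen after the expression values had been seen, and a match describes the letters only.

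MHC class I genes included 3 that were lower in Crebbp-KO. H2-T23, which encodes the nonclassical class I molecule Qa-1, stood at 8522, 8672 and 6965 in Crebbp-KO and 15011, 15989 and 14136 in Ep300-KO, and the libraries did not overlap (log2 fold change -0.91 ± 0.10 SE, adjusted p = 0.000158). H2-M3, a class I molecule that presents formylated peptides, differed by -0.63 (adjusted p = 0.00488). Tapbp, the tapasin that helps load peptides onto class I, differed by -0.40 (adjusted p = 0.0295), a call lost without p300-KO_18, p300-KO_287, CBP-KO_53 or CBP-KO_55 (adjusted p from 0.0599 to 0.121). In all, 0 of 18 tested members were higher in Crebbp-KO by limma (0 at an unadjusted p under 0.05, 0 by edgeR and 0 by DESeq2), 3 were lower and 15 did not pass the threshold, with a list median of -0.27. Over all tested genes, 4.79% were higher and 4.63% lower. Leaving out libraries gave 2 lower members without p300-KO_18 and 6 lower with the 6 knockout libraries alone. The class I and class II families hold closely similar genes, and reads that fit several copies could be counted for either one.

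**Figure D2:**
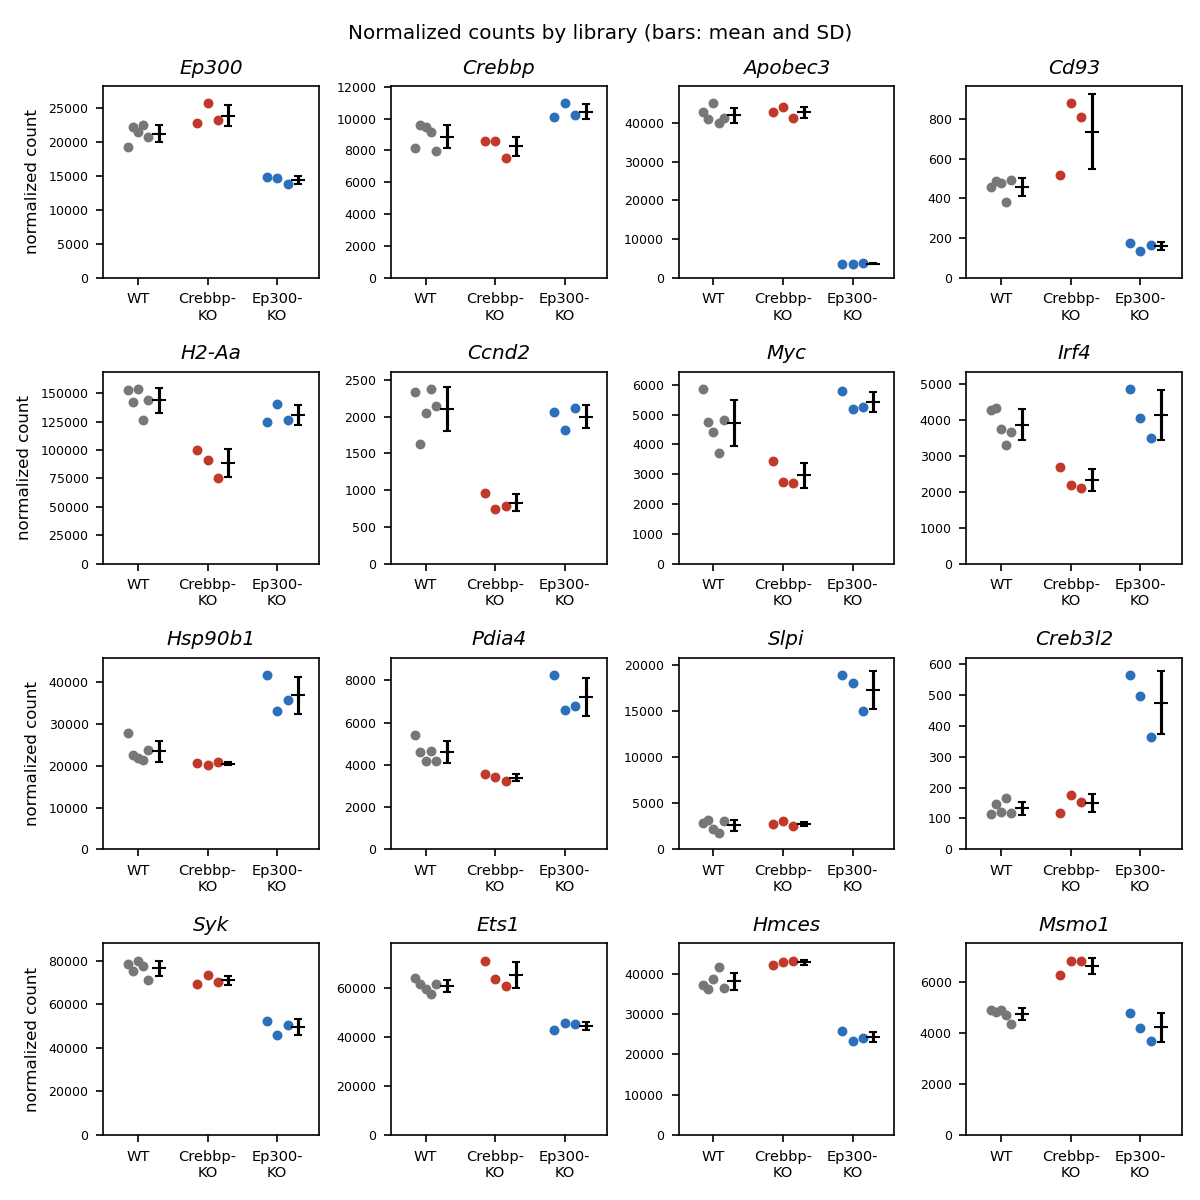
Normalized counts (vertical axes, starting at 0) of 16 genes in WT, Crebbp-KO and Ep300-KO, with each point a library and the black marks the mean and SD of the group. For H2-Aa the 3 Crebbp-KO points lie below the other 8, for Hsp90b1 the 3 Ep300-KO points lie above the other 8, and for Apobec3 the 3 Ep300-KO points lie far below the other 8.

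Of the light zone genes, 9 of 31 were lower in Crebbp-KO and 1 was higher. Ccnd2, the D-type cyclin that rises in selected light zone cells, stood at 958, 744 and 778 in Crebbp-KO and 2068, 1819 and 2119 in Ep300-KO, against 1626 to 2375 in WT. All 3 Crebbp-KO libraries were below all 8 others (log2 fold change -1.28 ± 0.14 SE, adjusted p = 0.000158). Myc, the growth regulator induced in positively selected cells, stood at 3441, 2736 and 2698 in Crebbp-KO and 5801, 5183 and 5268 in Ep300-KO, against 3720.0 to 5850.2 in WT. The Crebbp-KO libraries were again the lowest (log2 fold change -0.88 ± 0.14 SE, adjusted p = 0.00207). Cd44, an adhesion receptor, went the other way, at 9921, 9517 and 9894 in Crebbp-KO and 5972, 6482 and 6765 in Ep300-KO. WT lay between the knockouts for this gene, at 7756 to 8347 (log2 fold change 0.61 ± 0.06 SE, adjusted p = 6.57e-05). Across the light zone list, 1 of 31 tested members was higher in Crebbp-KO, 9 were lower and 21 did not pass the threshold, against 4.79% higher and 4.63% lower over all tested genes, and the list median was -0.55. Under other fits the counts were 1 higher without p300-KO_18, 2 higher without WT_46 or p300-KO_287, by DESeq2, with library weights, with the Y-linked covariate or at a mean of at least 50, 4 lower without p300-KO_18 or CBP-KO_55, 5 lower without p300-KO_287 or CBP-KO_53, 14 lower without CBP-KO_1, 15 lower by DESeq2 and 17 lower without WT_46 or with library weights. Traf1, an adaptor induced by CD40 and NF-kB, differed by -0.42 (adjusted p = 0.00769). In the list of NF-kB and CD40 response genes, 0 of 28 tested members were higher in Crebbp-KO by limma (0 at an unadjusted p under 0.05, 0 by edgeR and 0 by DESeq2), 4 were lower and 24 did not pass the threshold, and the counts moved to 1 lower without WT_41, WT_7, p300-KO_18, p300-KO_287, CBP-KO_53 or CBP-KO_55 or with no filter, 2 lower without p300-KO_289 or with the Y-linked covariate and 7 lower without WT_46. Beside Traf1 the called members were Relb, lost without WT_41, WT_7, p300-KO_18, p300-KO_287, CBP-KO_53 or CBP-KO_55 (adjusted p from 0.0506 to 0.148), Nfkb2, lost without WT_41, WT_4, WT_7, p300-KO_18, p300-KO_287, p300-KO_289, CBP-KO_53 or CBP-KO_55 (adjusted p from 0.0528 to 0.151), and Tnip1, lost without WT_41, WT_7, WT_288, p300-KO_18, p300-KO_287, p300-KO_289, CBP-KO_53 or CBP-KO_55 (adjusted p from 0.0535 to 0.168).

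Among genes of the cAMP and CREB response, 1 of 21 tested members was higher in Crebbp-KO, 4 were lower and 16 did not pass the threshold, against 4.79% higher and 4.63% lower over all tested genes. Other fits gave 0 higher without WT_41, WT_7, p300-KO_18, p300-KO_287, p300-KO_289, CBP-KO_53 or CBP-KO_55, under quantile normalization, with no filter or with the Y-linked covariate, 2 higher by DESeq2 or with library weights and 3 lower without p300-KO_18. Per1, a clock gene with CREB-driven induction, stood at 3340.3, 2937 and 2912 in Crebbp-KO and 4521, 5201 and 4319.7 in Ep300-KO (log2 fold change -0.61 ± 0.08 SE, adjusted p = 0.000465). Junb, an AP-1 subunit, stood at 4241, 3547 and 3659.6 in Crebbp-KO and 5677, 5501 and 4897 in Ep300-KO (log2 fold change -0.49 ± 0.08 SE, adjusted p = 0.00309), and Pde4a, a phosphodiesterase that degrades cAMP, stood at 1506, 1763 and 1717 in Crebbp-KO and 2288, 2486 and 2414 in Ep300-KO (log2 fold change -0.53 ± 0.11 SE, adjusted p = 0.0086). Nr4a1, an orphan nuclear receptor induced by antigen receptor signals, differed by -0.82 (adjusted p = 0.0251), a call lost without p300-KO_18, p300-KO_287, CBP-KO_53 or CBP-KO_55 (adjusted p from 0.0742 to 0.0926). Junb was also the 1 gene of 19 tested in the list of immediate early and heat shock genes that passed, and that list's median was -0.21.

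Cytokine receptors and their JAK-STAT partners differed in 1 direction. Il2rg, the receptor chain shared by IL-4, IL-21 and other cytokines, stood at 6215, 6335 and 5611 in Crebbp-KO and 8723, 9443 and 9159 in Ep300-KO, against 7801 to 9289 in WT (log2 fold change -0.59 ± 0.08 SE, adjusted p = 0.000661). Stat6, the factor that carries the IL-4 signal, stood at 10722, 10013 and 9498 in Crebbp-KO and 12951, 13351 and 12831 in Ep300-KO (log2 fold change -0.37 ± 0.06 SE, adjusted p = 0.00261). Il10rb, a chain of the IL-10 receptor, stood at 746, 852 and 778 in Crebbp-KO and 1257, 1291 and 1071 in Ep300-KO (log2 fold change -0.60 ± 0.10 SE, adjusted p = 0.00254). Ifnar2, a chain of the type I interferon receptor, differed by -0.72 (adjusted p = 0.00772), and Socs2, a feedback inhibitor of cytokine signals, by -1.92 (adjusted p = 0.0122). In this list 0 of 29 tested members were higher in Crebbp-KO by limma (0 at an unadjusted p under 0.05, 0 by edgeR and 0 by DESeq2), 8 were lower and 21 did not pass the threshold, and its median was -0.21. The shares over all tested genes were 4.79% higher and 4.63% lower. Other fits of this list gave 5 lower without p300-KO_18, p300-KO_287 or CBP-KO_53. Against WT, Il2rg stood at a log2 fold change of -0.52 in Crebbp-KO and 0.07 in Ep300-KO. Of the interferon response genes, 0 of 33 tested members were higher in Crebbp-KO by limma (2 at an unadjusted p under 0.05, 0 by edgeR and 1 by DESeq2), 0 were lower by limma (3 at an unadjusted p under 0.05, 0 by edgeR and 0 by DESeq2) and 33 did not pass the threshold, and the list median was -0.09.

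Components of B cell receptor signalling moved both ways. Syk, the kinase that starts the signal, stood at 69128, 73317 and 70456 in Crebbp-KO and 52527, 45692 and 50439 in Ep300-KO and was higher in every Crebbp-KO library (log2 fold change 0.52 ± 0.06 SE, adjusted p = 0.00042). Cd22, an inhibitory coreceptor, stood at 75723, 71015 and 67913 in Crebbp-KO and 115194, 120744 and 110812 in Ep300-KO and was lower in every Crebbp-KO library (log2 fold change -0.69 ± 0.09 SE, adjusted p = 0.000732). Sh3bp2, an adaptor, stood at 1479.5, 1457 and 1188 in Crebbp-KO and 2318, 2813 and 2327 in Ep300-KO (log2 fold change -0.86 ± 0.12 SE, adjusted p = 0.00123), and Nfatc2, a calcium-regulated transcription factor, at 3520.2, 2826 and 2639 in Crebbp-KO and 4406, 5306 and 4695 in Ep300-KO (log2 fold change -0.69 ± 0.10 SE, adjusted p = 0.00159). Cd79a, a signalling chain of the receptor itself, differed by -0.45 (adjusted p = 0.00768). In all, 3 of 35 tested members were higher in Crebbp-KO, 8 were lower and 24 did not pass the threshold. The background over all tested genes was 4.79% higher and 4.63% lower. Under other fits the counts of this list were 1 higher without p300-KO_287 or CBP-KO_53, 2 higher without p300-KO_18, 6 higher with library weights, 4 lower without p300-KO_18, CBP-KO_53 or CBP-KO_55 and 5 lower without p300-KO_287.

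Inhibitory and SLAM family receptors also differed in both directions. Cd84, a SLAM receptor of B and T cell contacts, stood at 2120.3, 2315 and 2048 in Crebbp-KO and 1419.5, 1566 and 1091 in Ep300-KO (log2 fold change 0.68 ± 0.14 SE, adjusted p = 0.00802). Ceacam1, an inhibitory receptor, stood at 410.3, 669.9 and 618 in Crebbp-KO and 1161, 1035 and 1173 in Ep300-KO (log2 fold change -1.02 ± 0.18 SE, adjusted p = 0.00493), and Pirb, an inhibitory receptor for MHC class I, at 246, 305 and 238 in Crebbp-KO and 602, 549 and 541 in Ep300-KO (log2 fold change -1.11 ± 0.20 SE, adjusted p = 0.00505). Btn2a2, a butyrophilin of antigen-presenting cells, stood at 36.2, 21.6 and 13.1 in Crebbp-KO and 67.7, 179 and 57.6 in Ep300-KO (log2 fold change -1.98 ± 0.41 SE, adjusted p = 0.00981). Ceacam1, Pirb and Btn2a2 were thus lower in Crebbp-KO, and Cd84 was higher. Tnfrsf14, the HVEM receptor often mutated in follicular lymphoma, differed by -0.72 (adjusted p = 0.0101), a call lost without CBP-KO_55 (adjusted p = 0.0507). In this list, 4 of 23 tested members were higher in Crebbp-KO, 5 were lower and 14 did not pass the threshold. The background over all tested genes was 4.79% higher and 4.63% lower. Other fits of the list gave 2 higher without CBP-KO_53 or CBP-KO_55, 3 higher without p300-KO_18, 5 lower without p300-KO_18 and 8 lower with library weights.

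Transcription factors of the germinal center reaction differed in both directions. Bach2, a repressor of plasma cell fate, stood at 69516, 73931 and 59189 in Crebbp-KO and 37330.2, 46928 and 44581 in Ep300-KO, against 47483 to 53545 in WT (log2 fold change 0.65 ± 0.09 SE, adjusted p = 0.00125). Foxp1, a forkhead factor that declines in germinal centers, differed by 0.70 (adjusted p = 0.00726). Tcf3, the E protein E2A that is active in the dark zone, stood at 36534, 34887 and 35378 in Crebbp-KO and 28964, 27389 and 29131 in Ep300-KO (log2 fold change 0.32 ± 0.06 SE, adjusted p = 0.0037). Id3, its inhibitor, was higher as well (0.71, adjusted p = 0.00488). Ets1, a factor that restrains plasma cell formation, stood at 71190.0, 63666 and 60986 in Crebbp-KO and 42858, 45560.4 and 45154 in Ep300-KO (log2 fold change 0.55 ± 0.06 SE, adjusted p = 0.000306). Irf4, which directs both selection and plasma cell differentiation, stood at 2687, 2201 and 2108 in Crebbp-KO and 4857, 4062 and 3484 in Ep300-KO, against 3314 to 4327 in WT (log2 fold change -0.82 ± 0.13 SE, adjusted p = 0.00255). Of this list, 7 of 29 tested members were higher in Crebbp-KO, 3 were lower and 19 did not pass the threshold, against backgrounds of 4.79% and 4.63%, and the counts were 6 higher without p300-KO_18 and 1 lower without p300-KO_18, p300-KO_287 or CBP-KO_55. Bcl6, the master repressor of the germinal center, did not pass (-0.27, 95% interval -0.54 to 0.0016, adjusted p = 0.202).

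Plasma cell genes differed in both directions, and several regulators among them were lower in Crebbp-KO than in Ep300-KO. Prdm1, which encodes the plasma cell regulator BLIMP1, stood at 475, 150.5 and 262 in Crebbp-KO and 1235, 1714 and 601 in Ep300-KO, against 401 to 868 in WT. The knockouts did not overlap, although the Ep300-KO libraries spread widely (log2 fold change -2.02 ± 0.43 SE, adjusted p = 0.0114). This call was lost without p300-KO_287 (adjusted p = 0.0504). Xbp1, the factor that builds the secretory apparatus, stood at 11914, 12533 and 12411 in Crebbp-KO and 17255, 17045 and 16255 in Ep300-KO (log2 fold change -0.46 ± 0.06 SE, adjusted p = 0.00097). Creb3l2, another factor of secretory cells, stood at 118, 177 and 155 in Crebbp-KO and 566, 498 and 365 in Ep300-KO, against 115 to 165 in WT (log2 fold change -1.65 ± 0.21 SE, adjusted p = 0.000601). Cd93, a surface receptor retained by long-lived plasma cells, went the other way, at 520.1, 879 and 812 in Crebbp-KO and 174, 136 and 166 in Ep300-KO (log2 fold change 2.18 ± 0.19 SE, adjusted p = 3.54e-05), and so did Slamf7 (0.44, adjusted p = 0.00212). In the plasma cell list, 3 of 23 tested members were higher in Crebbp-KO, 6 were lower and 14 did not pass the threshold. The background over all tested genes was 4.79% higher and 4.63% lower. The list median was -0.03, and 9 of the 23 fold changes were positive. Under other fits the counts were 2 higher without p300-KO_18, 3 lower without p300-KO_287 and 4 lower without p300-KO_18.

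Chaperones and folding enzymes of the endoplasmic reticulum were lower in Crebbp-KO, with 17 of 35 past the threshold. Hsp90b1, the chaperone GRP94, stood at 20551, 20249 and 20806 in Crebbp-KO and 41769, 33062 and 35870.2 in Ep300-KO, against 21320.5 to 27765 in WT. The 3 Crebbp-KO libraries lay below all 8 others and the 3 Ep300-KO libraries above all 8 others (log2 fold change -0.84 ± 0.10 SE, adjusted p = 0.000306). Pdia4, a disulfide isomerase, stood at 3571, 3409 and 3209.8 in Crebbp-KO and 8257, 6595 and 6803 in Ep300-KO, against 4162 to 5431 in WT (log2 fold change -1.08 ± 0.11 SE, adjusted p = 8.67e-05). Pdia6, another disulfide isomerase, stood at 12589, 12715 and 12699 in Crebbp-KO and 24669.5, 20574 and 22956 in Ep300-KO, against 14345 to 19884 in WT (log2 fold change -0.84 ± 0.10 SE, adjusted p = 0.000363). Ssr4, a subunit of the translocon-associated complex, differed by -0.42 (adjusted p = 0.00302). Hspa5, the chaperone BiP, stood at 31591, 34369 and 33786 in Crebbp-KO and 50839, 38732 and 47076 in Ep300-KO (log2 fold change -0.45 ± 0.10 SE, adjusted p = 0.0189), and its call was lost without p300-KO_18, p300-KO_289, CBP-KO_55 or CBP-KO_1 (adjusted p from 0.0562 to 0.0808). In the list of folding and secretion genes, 0 of 35 tested members were higher in Crebbp-KO by limma (1 at an unadjusted p under 0.05, 0 by edgeR and 0 by DESeq2), 17 were lower and 18 did not pass the threshold, against a background of 4.63% lower. The list median was -0.24, and against WT the medians were -0.06 for Crebbp-KO and 0.19 for Ep300-KO. Other settings gave 7 lower without p300-KO_18 or CBP-KO_55, 9 lower without CBP-KO_53, 10 lower without p300-KO_289 and 11 lower without CBP-KO_1.

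The promoters of Hsp90b1, Pdia6 and Hspa5 are shown because they are genes of this group that moved together and because the windows of all 3 hold the ER stress element, the composite site through which ATF6 and XBP1 act with NF-Y. Each window runs from 250 bases before to 50 bases after the gene start in RefSeq's GRCm38.p6 annotation, and capitals mark the element, CCAAT and CCACG with any 9 bases between them, on either strand. The Hsp90b1 window is chr10:86705395-86705694 on the minus strand, the Pdia6 window chr12:17266339-17266638 on the plus strand and the Hspa5 window chr2:34771840-34772139 on the plus strand.
Hsp90b1: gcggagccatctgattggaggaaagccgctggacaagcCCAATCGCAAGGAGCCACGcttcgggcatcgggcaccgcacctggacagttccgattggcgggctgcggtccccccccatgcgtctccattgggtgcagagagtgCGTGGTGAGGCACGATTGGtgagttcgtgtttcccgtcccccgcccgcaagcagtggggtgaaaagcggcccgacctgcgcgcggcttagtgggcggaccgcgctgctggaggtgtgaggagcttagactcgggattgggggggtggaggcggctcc
Pdia6: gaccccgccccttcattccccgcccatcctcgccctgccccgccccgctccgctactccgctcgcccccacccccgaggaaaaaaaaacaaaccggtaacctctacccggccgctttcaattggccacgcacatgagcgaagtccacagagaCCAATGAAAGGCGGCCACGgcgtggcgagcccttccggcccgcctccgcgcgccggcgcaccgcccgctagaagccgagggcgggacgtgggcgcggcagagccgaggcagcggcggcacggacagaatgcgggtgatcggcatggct
Hspa5: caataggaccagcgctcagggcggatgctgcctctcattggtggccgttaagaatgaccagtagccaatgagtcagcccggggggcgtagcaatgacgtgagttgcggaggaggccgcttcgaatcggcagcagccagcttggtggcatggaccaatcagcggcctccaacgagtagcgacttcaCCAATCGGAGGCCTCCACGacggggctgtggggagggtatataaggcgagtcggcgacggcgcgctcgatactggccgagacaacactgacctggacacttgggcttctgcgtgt
Of the 28 folding and secretion genes with a window, 8 held the element, and of the 13 called lower with a window, 6 did. Over all tested genes with a window, 18 of 10207 held it, or 0.176%. It lay in 8 of 567 windows of genes called lower in Crebbp-KO (1.41%) and in 1 of 612 windows of genes called higher (0.163%). The search was chosen after the expression values had been seen. Some genes of the group that were lower have no match in these letters, Pdia4 among them.

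Of the immunoglobulin constant regions, 5 of 12 were lower in Crebbp-KO, and each of these calls was lost when some library was left out. Igkc, the kappa light chain constant region, stood at 191759, 190825 and 178249 in Crebbp-KO and 246499, 222188 and 213745 in Ep300-KO, against 170714 to 180470.5 in WT, so that both knockouts overlapped or exceeded WT (log2 fold change -0.28 ± 0.06 SE, adjusted p = 0.0175). Its call was lost without p300-KO_18 or CBP-KO_55 (adjusted p from 0.0707 to 0.0769), with only the 6 knockout libraries and under quantile normalization. Ighe, the constant region of IgE, stood at 1323, 1499 and 649.6 in Crebbp-KO and 4147, 5179 and 2933 in Ep300-KO (log2 fold change -1.87 ± 0.41 SE, adjusted p = 0.0134), a call lost without p300-KO_287 or CBP-KO_55 (adjusted p from 0.0558 to 0.0617). The remaining called members were Iglc1, Iglc2 and Iglc3, lambda constant regions so alike that their reads cannot be assigned with certainty. The call was lost for Iglc1 without WT_4, WT_7, WT_288, p300-KO_18, p300-KO_287, p300-KO_289, CBP-KO_53, CBP-KO_55 or CBP-KO_1 (adjusted p from 0.0564 to 0.172), for Iglc2 without p300-KO_18, p300-KO_287, CBP-KO_53 or CBP-KO_55 (adjusted p from 0.0786 to 0.105) and for Iglc3 without p300-KO_18, p300-KO_287, CBP-KO_53 or CBP-KO_55 (adjusted p from 0.0516 to 0.0612). In this list, 0 of 12 tested members were higher in Crebbp-KO by limma (0 at an unadjusted p under 0.05, 0 by edgeR and 0 by DESeq2), 5 were lower and 7 did not pass the threshold, against 4.79% higher and 4.63% lower over all tested genes, and the list median was -0.45. Under other fits the counts were 1 lower without p300-KO_18, p300-KO_287 or CBP-KO_55 and 2 lower without CBP-KO_53.

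Genes of DNA replication included 10 that were higher in Crebbp-KO. Ccne2, a cyclin of S phase entry, stood at 5762, 6214 and 6891 in Crebbp-KO and 4374, 3940.1 and 4969.7 in Ep300-KO, against 3929 to 5086 in WT (log2 fold change 0.51 ± 0.11 SE, adjusted p = 0.0121). Every Crebbp-KO library was above every Ep300-KO library, and the call was lost without p300-KO_287 or CBP-KO_55 (adjusted p from 0.0507 to 0.0594). E2f1, a transcription factor of replication genes, stood at 7308, 7588 and 8184 in Crebbp-KO and 6085, 5314 and 6071 in Ep300-KO (log2 fold change 0.40 ± 0.07 SE, adjusted p = 0.00295). Of the S phase list, 10 of 40 tested members were higher in Crebbp-KO, 0 were lower by limma (0 at an unadjusted p under 0.05, 0 by edgeR and 0 by DESeq2) and 30 did not pass the threshold, and 38 of the 40 fold changes were positive. The shares over all tested genes were 4.79% higher and 4.63% lower. The list median was 0.21, and against WT the medians were -0.0008 for Crebbp-KO and -0.19 for Ep300-KO. Other fits gave 1 higher without p300-KO_287 or CBP-KO_55, 3 higher without CBP-KO_53, 4 higher with the 6 knockout libraries alone, 7 higher without p300-KO_18, 17 higher by DESeq2 and 18 higher with library weights.

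Of the mitotic genes, 6 were higher in Crebbp-KO. Cdc25b, the phosphatase that starts mitosis, stood at 38638, 43239 and 43188 in Crebbp-KO and 30314, 27971 and 32011 in Ep300-KO (log2 fold change 0.47 ± 0.06 SE, adjusted p = 0.000864), and Nek2, a centrosome kinase, at 18534, 19262 and 22026 in Crebbp-KO and 14427, 13753 and 15742 in Ep300-KO (log2 fold change 0.44 ± 0.07 SE, adjusted p = 0.00318). For both, all Crebbp-KO libraries were above all Ep300-KO libraries. In the list of G2 and mitosis genes, 6 of 40 tested members were higher in Crebbp-KO, 0 were lower by limma (0 at an unadjusted p under 0.05, 0 by edgeR and 0 by DESeq2) and 34 did not pass the threshold, with a list median of 0.17. The lists of mitosis, dark zone and repair genes stand against 4.79% higher and 4.63% lower over all tested genes. For the mitosis list other settings gave 2 higher without CBP-KO_55, 3 higher without p300-KO_287 or CBP-KO_53, 4 higher without p300-KO_18, 10 higher by DESeq2 and 11 higher with library weights. In the dark zone list, 6 of 23 tested members were higher in Crebbp-KO, 1 was lower and 16 did not pass the threshold, with Polh, the polymerase that copies across lesions during hypermutation, among the higher genes (0.35, adjusted p = 0.00878) and a list median of 0.17. For these genes other fits gave 6 higher without p300-KO_18, 0 lower without WT_41, WT_4, WT_7, p300-KO_18, p300-KO_287, CBP-KO_53 or CBP-KO_55, with no filter or with the Y-linked covariate and 2 lower without CBP-KO_1. Among hypermutation and DNA repair genes, 6 of 34 tested members were higher in Crebbp-KO, 0 were lower by limma (4 at an unadjusted p under 0.05, 0 by edgeR and 3 by DESeq2) and 28 did not pass the threshold, with 5 higher without p300-KO_18, 1 lower without WT_46 or at a mean of at least 50, 2 lower under quantile normalization and 3 lower by DESeq2 or with library weights. Lig4, the ligase of end joining, stood at 5913, 5425 and 6168 in Crebbp-KO and 2988, 3082 and 3079.8 in Ep300-KO (log2 fold change 0.93 ± 0.08 SE, adjusted p = 2.5e-05). Hmces, a protein that shields abasic sites, stood at 42150.2, 43027 and 43261 in Crebbp-KO and 25735, 23326 and 24172 in Ep300-KO (log2 fold change 0.81 ± 0.06 SE, adjusted p = 1.06e-05), and Msh6, a mismatch recognition subunit, differed by 0.26 (adjusted p = 0.00836).

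Enzymes of cholesterol synthesis were higher in Crebbp-KO, with 10 of 25 past the threshold. Msmo1, a sterol C4-methyl oxidase, stood at 6297, 6853 and 6831 in Crebbp-KO and 4796, 4205 and 3679 in Ep300-KO, against 4352 to 4933 in WT, and the Crebbp-KO libraries were above all 8 others (log2 fold change 0.66 ± 0.09 SE, adjusted p = 0.000662). Hsd17b7, another enzyme of this pathway, stood at 2695, 2493 and 2870.3 in Crebbp-KO and 1914, 1778 and 1654 in Ep300-KO (log2 fold change 0.59 ± 0.11 SE, adjusted p = 0.00736). Sc5d, the sterol C5 desaturase, stood at 6721, 6626 and 6606 in Crebbp-KO and 5566, 5316 and 4537 in Ep300-KO (log2 fold change 0.38 ± 0.08 SE, adjusted p = 0.0136). Idi1, which isomerizes the isoprenoid unit, differed by 0.39 (adjusted p = 0.0126), a call lost without CBP-KO_55 (adjusted p = 0.062). In this list, 10 of 25 tested members were higher in Crebbp-KO, 0 were lower by limma (0 at an unadjusted p under 0.05, 0 by edgeR and 0 by DESeq2) and 15 did not pass the threshold, against a background of 4.79% higher, and 23 of the 25 fold changes were positive. The list median was 0.32, and against WT the medians were 0.15 for Crebbp-KO and -0.18 for Ep300-KO. Under other fits the counts were 3 higher without CBP-KO_55, 4 higher without p300-KO_289 or CBP-KO_53, 5 higher without p300-KO_287 and 13 higher without p300-KO_18.

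**Figure D3:**
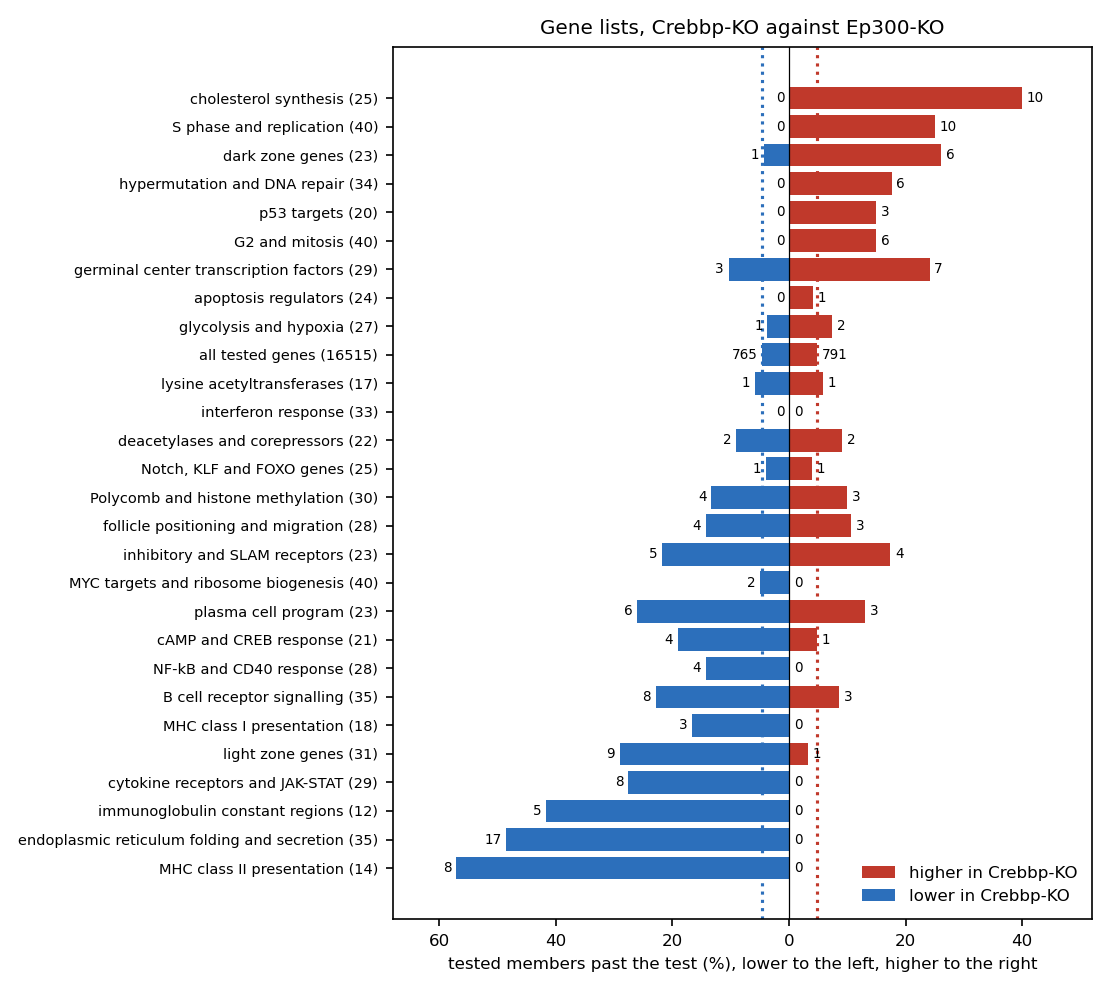
Bars give the percentage of tested members of each gene list that were lower (blue, to the left) or higher (red, to the right) in Crebbp-KO, the numbers at the bars are the counts, the number tested stands in parentheses, and dotted lines mark the shares over all tested genes, 4.63% and 4.79%. The class II list, with 8 of 14 lower, and the folding and secretion list, with 17 of 35 lower, lie at the lower end, and the cholesterol list, with 10 of 25 higher, at the upper end.

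**Figure D4:**
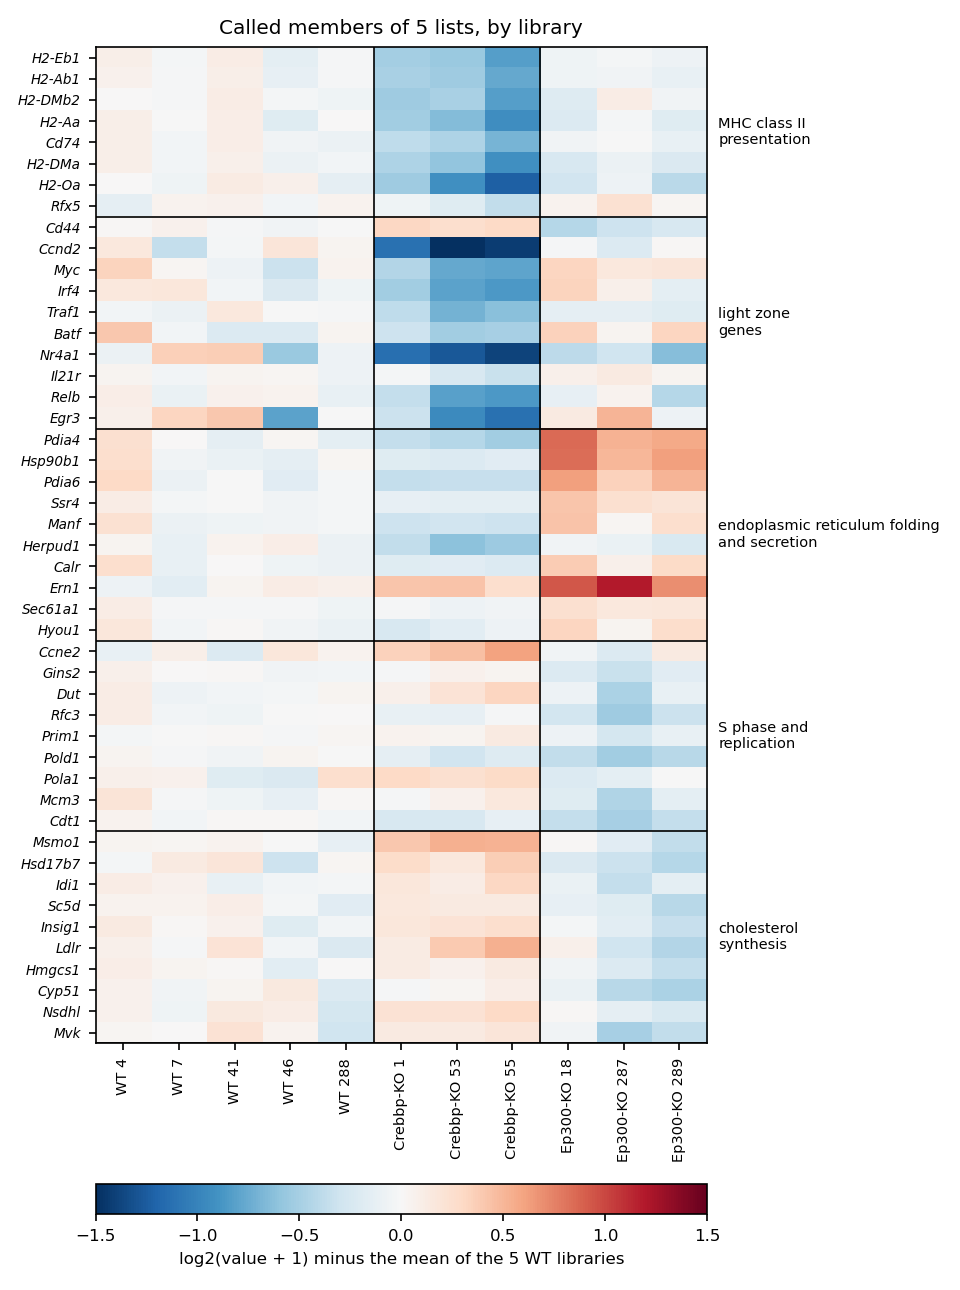
Rows are up to 10 called members of each of 5 gene lists, by smallest p. Genes that the naming rule would name but that are not reported here were left out, and some rows are not named in the text. Columns are the 11 libraries in the order WT, Crebbp-KO, Ep300-KO. Color gives log2(normalized count + 1) minus the mean of the 5 WT libraries, with values past 1.5 drawn in the end color. Most class II genes are close to WT in Ep300-KO and lower (blue) in Crebbp-KO, while Hsp90b1, Pdia4 and Pdia6 are higher (red) in Ep300-KO and slightly lower in Crebbp-KO.

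Of 22 deacetylase and corepressor genes, 2 were higher in Crebbp-KO, 2 were lower and 18 did not pass, against 4.79% higher and 4.63% lower over all tested genes. Hdac4, a class IIa deacetylase, stood at 2608, 2595 and 2358 in Crebbp-KO and 1593, 1800.2 and 1812 in Ep300-KO (log2 fold change 0.54 ± 0.07 SE, adjusted p = 0.000736), and Hdac8, a class I deacetylase, at 2650.1, 2517 and 2803 in Crebbp-KO and 2086, 1846 and 2020.4 in Ep300-KO (log2 fold change 0.42 ± 0.08 SE, adjusted p = 0.00843). Both were higher in Crebbp-KO. Hdac5 (-0.51, adjusted p = 0.0171) and Hdac11 (-0.92, adjusted p = 0.029) were lower. The Hdac5 call was lost without p300-KO_18 or p300-KO_287 (adjusted p from 0.0517 to 0.0527) and the Hdac11 call without p300-KO_18, p300-KO_287, CBP-KO_53 or CBP-KO_55 (adjusted p from 0.0715 to 0.103). Other fits of this list gave 2 higher without p300-KO_18, 4 higher with library weights, 0 lower without p300-KO_18 or p300-KO_287, 1 lower without CBP-KO_53 or CBP-KO_55, with no filter or with the Y-linked covariate and 4 lower under quantile normalization. In the list of Polycomb and histone methylation genes, 3 of 30 tested members were higher in Crebbp-KO, 4 were lower and 23 did not pass the threshold, against 4.79% higher and 4.63% lower over all tested genes, and other fits gave 3 higher without p300-KO_18, 1 lower without p300-KO_287 and 2 lower without p300-KO_18, CBP-KO_53 or CBP-KO_55. Ezh1, a Polycomb methyltransferase, stood at 2260.3, 2222 and 1954 in Crebbp-KO and 2792, 2980.4 and 2724 in Ep300-KO (log2 fold change -0.40 ± 0.08 SE, adjusted p = 0.00702). Cbx7, a chromodomain subunit of Polycomb complexes at chr15:79915807-79971119, stood at 6630.0, 6184 and 5856 in Crebbp-KO and 1241, 1468 and 1312 in Ep300-KO, against 6294 to 8537 in WT. The Ep300-KO libraries were below all 8 others (log2 fold change 2.22 ± 0.11 SE, adjusted p = 1.67e-07). Its relative Cbx6 behaved likewise, at 9473, 8941 and 9088 in Crebbp-KO and 4780.2, 4353 and 4288 in Ep300-KO, against 7603 to 7946 in WT (log2 fold change 1.04 ± 0.05 SE, adjusted p = 3.86e-07).

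Genes of cell positioning included Gna13, the G protein that confines germinal center B cells, at 41205, 41861 and 42579 in Crebbp-KO and 31066, 32985 and 32908 in Ep300-KO (log2 fold change 0.37 ± 0.05 SE, adjusted p = 0.000861), and Itga4, an integrin chain, at 6842, 6661 and 5896 in Crebbp-KO and 4079, 4511 and 4169 in Ep300-KO (log2 fold change 0.60 ± 0.10 SE, adjusted p = 0.00329). Both were higher in Crebbp-KO. Itgal, the LFA-1 integrin chain, was lower (-0.30, adjusted p = 0.00639). Cxcr4, the chemokine receptor that draws cells to the dark zone, was higher (0.28, adjusted p = 0.0138), a call lost without p300-KO_287 (adjusted p = 0.0515). Of this list, 3 of 28 tested members were higher in Crebbp-KO, 4 were lower and 21 did not pass the threshold, and other fits gave 3 higher without p300-KO_18, 1 lower without p300-KO_18 or CBP-KO_55 and 2 lower without p300-KO_287 or p300-KO_289. S1pr2, the receptor that couples to Gna13, did not pass (-0.04, 95% interval -0.17 to 0.09, adjusted p = 0.711). Bcl2l11, which encodes the cell death initiator BIM, was the 1 of 24 apoptosis regulators to pass, at 6372, 8848 and 8281 in Crebbp-KO and 3838, 3875 and 5036 in Ep300-KO (log2 fold change 0.88 ± 0.16 SE, adjusted p = 0.00445). Rrm2b, a p53-induced subunit of ribonucleotide reductase, was higher in Crebbp-KO (0.55, adjusted p = 0.00376). Among p53 targets, 3 of 20 tested members were higher in Crebbp-KO, 0 were lower by limma (1 at an unadjusted p under 0.05, 0 by edgeR and 1 by DESeq2) and 17 did not pass the threshold, and other fits gave 1 higher without WT_7, p300-KO_18, p300-KO_289, CBP-KO_53 or CBP-KO_1 or with no filter, 5 higher by DESeq2 and 1 lower without WT_46 or CBP-KO_53, by DESeq2 or at a mean of at least 50. Of 40 MYC target and ribosome biogenesis genes, 2 were lower and 0 higher, and of 27 glycolysis and hypoxia genes 2 were higher and 1 lower. Of 25 Notch, KLF and FOXO genes, 1 was higher and 1 lower. The shares of these last 3 lists lie near the backgrounds of 4.79% and 4.63%. The positioning, apoptosis and p53 lists stand against the same backgrounds, 4.79% higher and 4.63% lower over all tested genes.

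The largest differences with higher levels in Crebbp-KO included genes of low abundance. Nav3, a neuron navigator protein, stood at 92.9, 74.8 and 41.5 in Crebbp-KO and 2.91, 1.60 and 2.56 in Ep300-KO, against 5.85 to 37.5 in WT (log2 fold change 4.34 ± 0.59 SE, adjusted p = 0.000757). Rag1, the recombinase of antigen receptor assembly, stood at 72.4, 64.9 and 80.8 in Crebbp-KO and 8.0, 9.59 and 2.56 in Ep300-KO, against 16.7 to 41.2 in WT (log2 fold change 3.40 ± 0.45 SE, adjusted p = 0.000739). WT thus lay between the knockouts for Rag1. Creg2, a secreted glycoprotein, stood at 253, 232 and 259.8 in Crebbp-KO and 17.5, 32.0 and 15.4 in Ep300-KO (log2 fold change 3.53 ± 0.28 SE, adjusted p = 1.82e-05), and Myl4, an atrial myosin light chain, at 4966, 5786 and 6057 in Crebbp-KO and 931, 701 and 857 in Ep300-KO, against 3147 to 3584 in WT (log2 fold change 2.76 ± 0.11 SE, adjusted p = 1.35e-08). Fam50b, Iglon5, Epha2, Dlgap2, Adgb, Trim2 and Map2 completed this set, with log2 fold changes from 2.56 to 3.50 and adjusted p from 0.000599 to 0.00777. Apobec3, a cytidine deaminase that restricts retroviruses and lies at chr15:79891659-79915906, was the abundant member, at 42716, 44058 and 41341 in Crebbp-KO and 3441, 3573 and 3735 in Ep300-KO, against 39873 to 44999 in WT. The Ep300-KO libraries were below all 8 others, and the Crebbp-KO libraries lay within the WT range (log2 fold change 3.58 ± 0.06 SE, adjusted p = 6.35e-13).

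Among genes with lower levels in Crebbp-KO, Slpi, a secreted inhibitor of leukocyte proteases, stood at 2716, 3027 and 2515 in Crebbp-KO and 18904, 18034 and 14946 in Ep300-KO, against 1761 to 3162 in WT. The Ep300-KO libraries were above all 8 others (log2 fold change -2.65 ± 0.18 SE, adjusted p = 5.29e-06). Myo1f, an unconventional myosin of leukocytes, stood at 127, 213 and 251 in Crebbp-KO and 1068, 935 and 1048 in Ep300-KO (log2 fold change -2.42 ± 0.23 SE, adjusted p = 7.08e-05). Entpd1, the ectonucleotidase CD39, stood at 7.24, 25.6 and 30.6 in Crebbp-KO and 133, 98.3 and 75.5 in Ep300-KO (log2 fold change -2.40 ± 0.44 SE, adjusted p = 0.00542). For Slpi, Myo1f and Entpd1, every Crebbp-KO library was below every Ep300-KO library, which the rule that chose this set required. Pik3r5, a regulatory subunit of PI3K gamma, stood at 65.2, 115 and 51.3 in Crebbp-KO and 357, 266 and 298 in Ep300-KO (log2 fold change -2.05 ± 0.26 SE, adjusted p = 0.000573). Fcgrt, the neonatal Fc receptor, stood at 19.3, 38.4 and 13.1 in Crebbp-KO and 99.7, 67.9 and 109 in Ep300-KO (log2 fold change -2.03 ± 0.39 SE, adjusted p = 0.0072). Tspyl5, Olfr98 and Emilin2 differed by -3.0, -2.50 and -2.45, with adjusted p of 0.00947, 0.00116 and 0.0015. Nes, the intermediate filament nestin, had the largest negative change within the set defined by the naming rule, which leaves out predicted genes and genes under 50 normalized reads in the higher group, at 9.65, 5.90 and 6.55 in Crebbp-KO and 90.2, 163 and 87.0 in Ep300-KO (log2 fold change -3.74 ± 0.88 SE, adjusted p = 0.0198), and its call was lost without p300-KO_18, p300-KO_287, CBP-KO_53 or CBP-KO_55 (adjusted p from 0.0548 to 0.0766). Lad1 (-2.55, adjusted p = 0.0292) was no longer called without p300-KO_18, p300-KO_287, p300-KO_289, CBP-KO_55 or CBP-KO_1 (adjusted p from 0.067 to 0.0885). Dlg4 (-2.38, adjusted p = 0.0159) was no longer called without p300-KO_18, p300-KO_287, CBP-KO_53 or CBP-KO_55 (adjusted p from 0.0596 to 0.0668). Hid1 (-2.13, adjusted p = 0.0275) was no longer called without p300-KO_18, p300-KO_287, CBP-KO_53 or CBP-KO_55 (adjusted p from 0.083 to 0.11).

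Several of the strongest differences lay near Ep300 itself. Within 5 Mb of Ep300 on chromosome 15, 38 of 174 tested genes were called, or 21.8%, with 22 higher and 16 lower in Crebbp-KO. From 5 to 20 Mb away the share was 10.1%, and farther along the chromosome it was 10.3%. Around Crebbp on chromosome 16, 5 of 49 genes within 5 Mb were called, or 10.2%, against 12.7% from 5 to 20 Mb and 10.4% beyond. Apobec3 lies 1.69 Mb, Cbx7 1.61 Mb and Cbx6 1.75 Mb from Ep300. Arhgap8, Arhgap39, Josd1 and Ift27 are other called genes on this chromosome, at -1.65, -1.15, 0.60 and 0.75, and were chosen after their values had been seen. The floxed Ep300 allele, the strain background around it and loss of Ep300 go together in these mice and cannot be told apart.

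**Figure D5:**
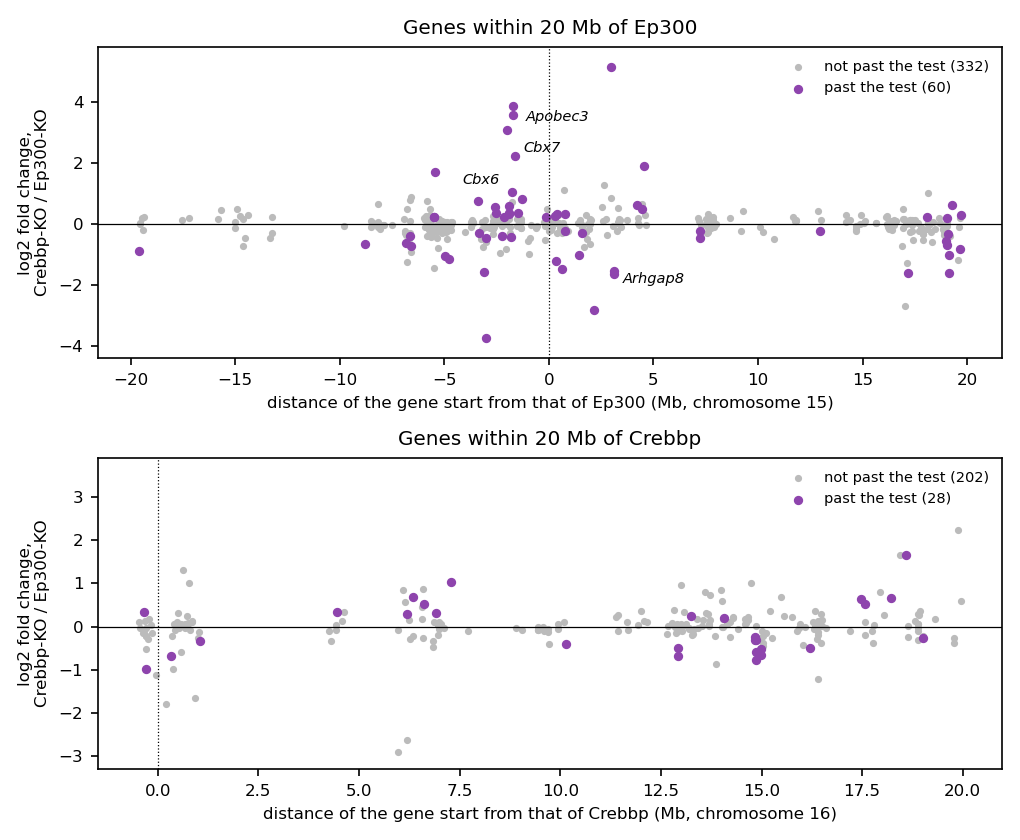
Log2 fold change of Crebbp-KO over Ep300-KO (vertical axis) for tested genes within 20 Mb of Ep300 on chromosome 15 and of Crebbp on chromosome 16, against the distance in Mb of each gene start from that of the targeted gene, with called genes in purple and other genes in grey. Within 5 Mb of Ep300, 21.8% of genes are called, and Apobec3, Cbx7 and Cbx6 stand above most others there, while within 5 Mb of Crebbp 10.2% are called.

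Markers of other cell types were compared in the same way. Macrophage and monocyte markers summed to 2226.5 to 3274.2 normalized reads in Crebbp-KO, 3019.7 to 4010.5 in Ep300-KO and 4082.4 to 10187 in WT. Among them, 0 of 12 tested members were higher in Crebbp-KO by limma (0 at an unadjusted p under 0.05, 0 by edgeR and 0 by DESeq2), 2 were lower and 10 did not pass the threshold, against 4.79% higher and 4.63% lower over all tested genes, and 10 of the 12 fold changes were negative. The list median was -0.98, and -0.43 without CBP-KO_1. In the libraries nearly free of Y-linked reads, with 1 Ep300-KO library left, it was -0.05, and 6 of the 12 fold changes were positive. Other fits gave 1 lower without p300-KO_18, p300-KO_287 or CBP-KO_55 or at a mean of at least 50, 4 lower without p300-KO_289 or with library weights and 5 lower by DESeq2. The called members were Hmox1, the heme oxygenase (-1.02, adjusted p = 0.00671), and Adgre1, the F4/80 antigen (-1.85, adjusted p = 0.014). The Adgre1 call was lost without p300-KO_18, p300-KO_287 or CBP-KO_55 (adjusted p from 0.0515 to 0.0608). Among mitochondrially encoded genes, 0 of 13 tested members were higher in Crebbp-KO by limma (1 at an unadjusted p under 0.05, 0 by edgeR and 1 by DESeq2), 0 were lower by limma (0 at an unadjusted p under 0.05, 0 by edgeR and 0 by DESeq2) and 13 did not pass the threshold. C1qa and C1qb stayed under 50 normalized reads in all 6 knockout libraries. Among naive and memory B cell markers, 2 of 20 tested members were higher in Crebbp-KO, 2 were lower and 16 did not pass the threshold, against 4.79% higher and 4.63% lower over all tested genes, and other fits gave 1 higher without p300-KO_18, CBP-KO_53 or CBP-KO_1, 0 lower without p300-KO_18, CBP-KO_55 or CBP-KO_1, 1 lower without p300-KO_289 and 4 lower without CBP-KO_53 or with the 6 knockout libraries alone. Among T cell markers, 0 of 9 tested members were higher in Crebbp-KO by limma (1 at an unadjusted p under 0.05, 0 by edgeR and 0 by DESeq2), 0 were lower by limma (1 at an unadjusted p under 0.05, 0 by edgeR and 0 by DESeq2) and 9 did not pass the threshold. Zbtb46 was the 1 of 5 dendritic cell markers that passed, at -1.40 (adjusted p = 0.0366), and was lost without p300-KO_18, p300-KO_287, p300-KO_289, CBP-KO_53, CBP-KO_55 or CBP-KO_1 (adjusted p from 0.053 to 0.128). Among erythroid and platelet markers, 2 of 7 tested members were higher in Crebbp-KO, 0 were lower by limma (0 at an unadjusted p under 0.05, 0 by edgeR and 0 by DESeq2) and 5 did not pass the threshold, 4 of the 7 fold changes were positive, and the median of 0.13 turned negative, at -0.20 to -0.07, without p300-KO_289, CBP-KO_53 or CBP-KO_55. Hbb-bs and Hba-a1 were highest in p300-KO_287 among the knockout libraries, at 71.9 and 85.5 normalized reads. Hbb-bt, a beta globin, was higher in Crebbp-KO, at 443, 286 and 181 in Crebbp-KO and 72.8, 71.1 and 39.7 in Ep300-KO (log2 fold change 2.25 ± 0.36 SE, adjusted p = 0.00227), and so was the other called member, Car2, a carbonic anhydrase of red cells and other tissues (1.21, adjusted p = 0.000662). Pecam1, an adhesion molecule of endothelium and leukocytes, was lower (-0.69, adjusted p = 0.000425), as 1 of 5 tested stromal and endothelial markers. The part of these markers in the gene differences above was not tested. Fewer cells of a type and less RNA per cell cannot be told apart in these bulk libraries.

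For some genes that stood away from WT, a difference between the knockouts was not detectable in these libraries. Rgs13, a regulator of chemokine signals in germinal center B cells, stood at 8293, 2718 and 3816 in Crebbp-KO and 8385, 10236 and 4242 in Ep300-KO, against 13363 to 17869 in WT. The difference between the knockouts was -0.69 with a 95% interval of -1.46 to 0.07 (adjusted p = 0.249). Lck, a Src family kinase, stood at 5869.7, 4701 and 4729.5 in Crebbp-KO and 5706, 5704 and 4404 in Ep300-KO, against 8782 to 10932 in WT, and differed between the knockouts by -0.05 with an interval of -0.30 to 0.21 (adjusted p = 0.855). Mpeg1, a pore-forming protein of phagocytes and B cells, stood at 1103, 1301 and 1712 in Crebbp-KO and 1614, 1518 and 1267 in Ep300-KO, against 2212 to 6428 in WT. Its interval was wide, from -0.77 to 0.55, around -0.11 (adjusted p = 0.861). These genes were chosen after their values had been seen, and the intervals still hold differences of the size of many called genes.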

How the data were processed

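RNA from sorted splenic germinal center B cells was sequenced as 11 libraries, and per the submitters' processing notes the tools were CASAVA, HISAT2, featureCounts and DESeq2 with genome build mm10. The deposited signal values are read counts per gene, which the authors divided by a DESeq2 size factor for each library. Multiplying each value by its library's factor returned whole reads for 100% of values within 1e-06. The library kit does not mark strand, so reads of a gene and of its antisense partner cannot be told apart.

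Genes with a mean of at least 10 were kept, and log2(value + 1) was fitted with limma 3.58.1 (trend, R 4.3.3) over all 11 libraries, with Benjamini-Hochberg adjustment over 16515 genes. On the recovered reads edgeR 4.0.16 (quasi-likelihood, TMM) called 1525 genes and DESeq2 1.42.0 called 2335. Named genes are Crebbp and Ep300, in each direction the 12 largest changes at most among called genes without overlap and with a mean of at least 50 in the higher group (predicted genes, pseudogenes, receptor segments and sex-linked genes left out), at most 4 members of each gene list by p, and others said to be chosen after their values were seen, or named to describe a list. The comparison, its members and the lists were chosen with earlier results of these data known. Gene positions are from GENCODE M21, or RefSeq GRCm38.p6 where that had none, for 16447 genes, and promoters are from RefSeq GRCm38.p6 for 10207 genes. Some genes that this rule would name are not reported here. Alternatives changed the pseudocount, filter, scaling, tool, libraries and covariates.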

Additional observations from a re-analysis of the deposited data

Results flagged for a closer look

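Among 156 named genes, 13 had a WT library whose gap to the nearest other WT library was large against the range of the 5 WT libraries by Dixon's 95% criterion, which chance alone meets in about 1 of 20 groups. WT_46 was the outlying library for 7 of them. Its value was the highest of the WT libraries or the lowest of them at 1571.8 normalized reads of Map2, 4785 of H2-M3, 89.3 of Zbtb46, 502 of Hbb-bt, 868 of Prdm1, 29529 of Bcl6 and 41178 of S1pr2. WT_4 stood apart at 47483 of Bach2, 5833 of Tnip1 and 2971 of Ssr4. WT_41 stood apart at 112 of Fcgrt and 500.3 of Bnip3, and WT_288 at 43.3 of Dlg4. The knockout groups hold 3 libraries each and were not examined in this way. The direct comparison of the knockouts uses WT through the shared estimate of the spread. WT also enters the filter on the mean and the size factors, which cover all 11 libraries.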

How the results depend on the processing

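The 1556 calls, 791 higher and 765 lower in Crebbp-KO, kept their direction in each alternative in which the gene was still tested. For the 1541 called genes without overlap between the knockouts, leaving out libraries could not reverse the direction. DESeq2 on the recovered reads called 2335 genes, with 1188 lower. Library weights gave 2808 calls, with 1393 higher and 1415 lower. At 2-fold or more, 338 genes were called, with 141 higher and 197 lower. Leaving out 1 library at a time gave 745 to 1954 calls, with 397 to 928 higher and 348 to 1026 lower, and the low end came without p300-KO_18 (849), p300-KO_287 (906), CBP-KO_53 (862) or CBP-KO_55 (745). Libraries nearly free of Y-linked reads, an alternative chosen after seeing the data, gave 61 calls, 41 higher and 20 lower, with 1 Ep300-KO library left that is assumed to vary like the other groups. Leaving out WT_46 together with p300-KO_18, also chosen after seeing the data, gave 1184. The Y-linked sum as a covariate gave 1302, the 6 knockout libraries alone 1430, edgeR 1525 and no filter 1211. The cause of these changes was not tested, and fits that leave out libraries also hold fewer of them. Over 156 genes and 3579 values, 3128 kept direction and side of the threshold, 428 lost the threshold, 14 gained it and 9 reversed. Lck turned positive without p300-KO_18, p300-KO_287, CBP-KO_53 or CBP-KO_55, and at 0.043 with the Y-linked covariate. It was also positive at 0.017 without WT_46 and p300-KO_18 and at 0.10 in the libraries nearly free of Y-linked reads. Mpeg1 turned positive without CBP-KO_1 and at 0.24 in the libraries nearly free of Y-linked reads. Over all fits with a library left out, Lck ranged from -0.17 to 0.017 and Mpeg1 from -0.28 to 0.033. Neither gene was called. No paired analysis was possible because the Crebbp-KO, Ep300-KO and WT libraries share no replicate number. With 3 libraries a group, no exact test of 1 gene can go below 0.1, and genes of few reads carry wide intervals. Libraries and animals may not be the same units, since the labels do not say so.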
